A study of Mus musculus with 9 samples.

Results

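The 10 genes described here are 9 genes of the circadian clock and Noct, taken by symbol from the table of counts; the set was chosen by function, and with its measured levels across treatments and replicate numbers already in view. They are Clock, Arntl (also called Bmal1), Per1, Per2, Cry1, Nr1d1, Nr1d2, Bhlhe40 and Dbp, together with Noct, and all 10 were found among the 53342 genes of the table and had enough counts to be tested. RNA was sequenced from wild-type bone-marrow-derived macrophages, cells grown in culture from marrow of male and female C57BL/6J mice aged 8 to 12 weeks. All 9 libraries come from cells fed spinal cord homogenate (10 mg per mL, 1% weight per volume, made from pooled cords of C57BL/6 mice aged 8 to 20 weeks) for 24 h, so no group was left without homogenate. The question was which genes differ when lipid loading by such homogenate is lowered with Torin-2, with rapamycin as the control for mTORC1 inhibition. The 3 groups of 3 biological replicates differ in what was given from 2 h before feeding: vehicle medium, rapamycin, which inhibits the mTORC1 complex, or Torin-2, which inhibits the mTOR kinase itself and therefore both of its complexes. The labels used here do not state doses or the time of day of harvest, and each group was taken at 1 time after feeding, so a change in level and a shift in the phase of a rhythm cannot be told apart.

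The circadian clock of mammalian cells is a transcriptional feedback loop that runs in nearly all cell types, macrophages included. CLOCK and ARNTL bind DNA as a pair at E-box sequences and switch on the Per and Cry genes, whose proteins then block the pair, and the same pair switches on Nr1d1 and Nr1d2, whose products REV-ERB alpha and REV-ERB beta repress Arntl, Clock and Cry1. Dbp is an output gene of the pair, Bhlhe40 encodes a further repressor that competes for E-boxes, and Noct encodes nocturnin, a rhythmically expressed phosphatase of NADP(H) that was long described as a deadenylase and whose loss protects mice from diet-induced fat gain. In macrophages the REV-ERB proteins are known as repressors of inflammatory and chemokine genes.

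The promoters of these genes carry the letters through which the loop is read, and a few are shown so that members with and without a given motif can be seen side by side. Windows from 250 bases before to 50 bases after the RefSeq start sites (GRCm38.p6) were matched for 8 of the members, with 12 windows in all. The E-box letters CACGTG occurred in windows of Per1 and Cry1 and in 7.15% of all 32851 such windows, and the variant AACGTG in Cry1 and Nr1d1 and in 4.68% of all windows. The REV-ERB and ROR core AGGTCA occurred in Arntl, Clock, Nr1d2 and Per1 and in 16.3% of all windows. The cAMP response element core TGACG occurred in Cry1, Noct and Per1 and in 20.8% of all windows, and the D-box letters TTATGTAA, which DBP binds, in 0 member windows and 0.938% of all windows. Among windows of tested genes these shares were 10.1%, 5.25%, 12.2%, 31.2% and 0.488%, in the order given. Counted by window, the members held the motifs in 2, 2, 4, 4 and 0 of 12. Both strands were searched for each motif, and matches of different motifs shared no base in the member windows. Such a match is a description of letters, not a site of binding. In the 3 short stretches that follow, 5′ to 3′, capitals mark an E-box or a REV-ERB and ROR core. The E-box of Per1 (chr11:69098771-69098800, plus strand) lies 166 bases before the start at 69098949. The core in Nr1d2 (chr14:18239166-18239195, minus strand) lies 77 bases before the start at 18239106. The core in Arntl (chr7:113207530-113207559, plus strand) begins 31 bases after the start at 113207511. Per1 and Arntl each have another window, with starts at 69100152 and 113207465, which lacks that motif.
Per1: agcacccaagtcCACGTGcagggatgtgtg
Nr1d2: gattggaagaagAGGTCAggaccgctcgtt
Arntl: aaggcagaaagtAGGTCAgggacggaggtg
Longer stretches before the start are given for Nr1d1 (chr11:98775378-98775627, minus strand), Cry1 (chr10:85185065-85185304, minus strand) and Noct (chr3:51224197-51224446, plus strand). These 3 were picked by their own levels, as examples of different orders of the group means. Other members share the orders of Nr1d1 and Cry1. Capitals mark the E-box variant of Nr1d1, 28 bases before its start, and in Cry1 the variant followed by the E-box, 79 and 60 bases before its start. The Noct stretch holds none of the letters searched, and its single TGACG begins 5 bases after the start.
Nr1d1: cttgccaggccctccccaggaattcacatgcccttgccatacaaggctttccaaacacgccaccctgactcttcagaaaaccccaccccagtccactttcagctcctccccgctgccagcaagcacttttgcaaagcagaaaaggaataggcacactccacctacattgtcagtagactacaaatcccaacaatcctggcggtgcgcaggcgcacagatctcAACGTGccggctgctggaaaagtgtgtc
Cry1: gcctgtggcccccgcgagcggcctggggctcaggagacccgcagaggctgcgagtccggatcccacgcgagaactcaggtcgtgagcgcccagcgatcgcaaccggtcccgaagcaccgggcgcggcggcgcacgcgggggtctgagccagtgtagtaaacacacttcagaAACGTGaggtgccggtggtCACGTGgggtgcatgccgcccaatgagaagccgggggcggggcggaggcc
Noct: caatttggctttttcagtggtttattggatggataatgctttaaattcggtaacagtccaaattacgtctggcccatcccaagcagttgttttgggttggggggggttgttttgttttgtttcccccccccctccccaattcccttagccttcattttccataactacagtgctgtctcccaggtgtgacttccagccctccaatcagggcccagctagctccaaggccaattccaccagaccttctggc

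Library totals ran from 16116666 to 24044329 counts, and levels are given as CPM, counts per 1000000 after TMM scaling, which does not adjust for gene length. The libraries carried all 8 macrophage markers examined (among them Csf1r, Adgre1 and Lyz2), with summed levels of 11800 to 16400 CPM in vehicle, 19500 to 21200 CPM in rapamycin and 15000 to 16800 CPM in Torin-2 libraries. Lyz2 made up most of these sums, at means of 9752, 14930 and 11710 CPM in vehicle, rapamycin and Torin-2. Single markers split: Adgre1 stood at means of 951, 708 and 681 CPM and Fcgr1 at 98.0, 76.8 and 36.6 CPM. Cd14 went the other way, at 44.7, 436 and 288 CPM. The 7 oligodendrocyte markers, 6 of which were abundant enough to be tested, summed to 481 to 613, 692 to 846 and 366 to 423 CPM in the same order of groups, and the lymphocyte markers Cd3e, Cd3d and Nkg7 were at 0 counts in all 9 libraries. In these bulk samples, fewer cells of a type and less RNA per cell cannot be told apart. Levels per kilobase of annotated exon allow a rough comparison between genes. The length merges the exons of all annotated transcripts of a gene (10.7 kb for Noct, 13.7 kb for Clock). It need not be that of the RNA made in these cells, and the order depends on it. Bhlhe40 had the highest level of the 10 (30.8 CPM per kb over the 9 libraries), followed by Nr1d2 (15.4) and Dbp (6.67). Cry1 (4.90), Clock (4.13), Per1 (3.84) and Nr1d1 (2.57) came next, and Per2 (1.36), Noct (1.29) and Arntl (0.556) were the lowest. This order pools the groups: in vehicle Cry1 (6.52) and Clock (4.37) stood above Dbp (3.78), and with Torin-2 Noct (0.414) stood below Arntl (0.442). Arntl was also counted least, with 53 to 119 counts per library, so its values are the least precise.

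Their levels and fold changes across treatments and replicate numbers are therefore given as a description, with no test. The number of members past the threshold (adjusted p under 0.05 by Benjamini-Hochberg over 12511 genes, from the quasi-likelihood test of edgeR) is set beside the share of all genes past it, and nothing is read from it. Past the threshold were 10 of 10 members for Torin-2 against vehicle, 6 above and 4 below, where 65.4% of all genes tested passed. Left out singly, Torin-2 replicate 1, Torin-2 replicate 3 and vehicle replicate 2 each took this to 5 above and 2 below, with Arntl, Clock and Per2 the members lost. For rapamycin against vehicle, 7 of 10 passed, 6 above and 1 below, against 50.8% of all genes (24.6% above, 26.2% below), and for Torin-2 against rapamycin 4 of 10 passed, 2 above and 2 below, against 48.2% (24.2% above, 24.1% below). With the replicate number as a block, 3 stood above and 3 below, Nr1d1 and Arntl being added. Groups did not overlap for 9 of 10 members between Torin-2 and vehicle, with 35.1% of all genes entirely above and 35.1% entirely below. Between rapamycin and vehicle 7 of 10 members did not overlap (27.8% of all genes above, 29.7% below). The 3 comparisons share libraries, so they are not independent of each other.

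**Figure D1:**
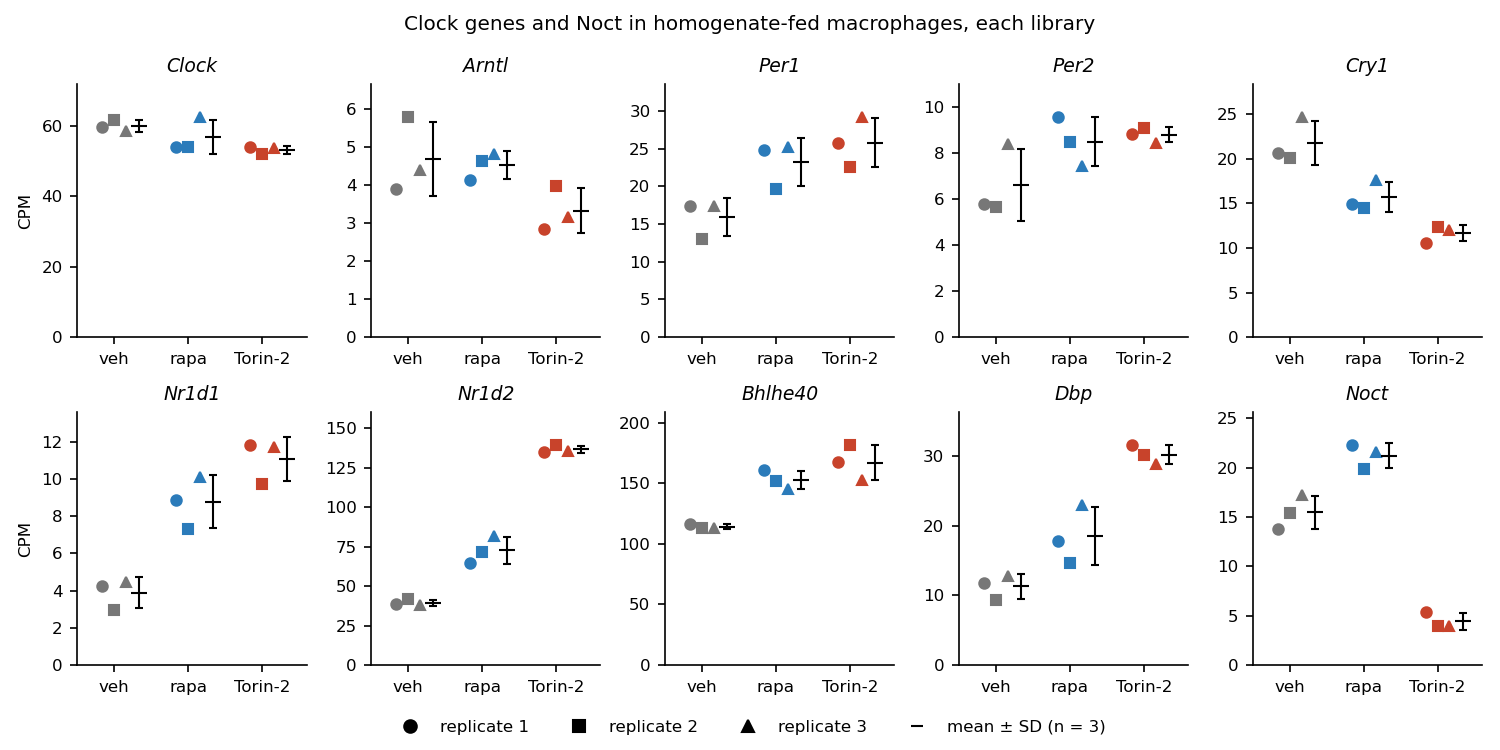
Each panel plots the CPM of 1 gene in the 9 libraries (points; shape gives the replicate number) by treatment, with the group mean and SD as a black bar; each vertical axis starts at 0 and has its own scale. Nr1d1, Nr1d2 and Dbp climb from vehicle through rapamycin to Torin-2, Cry1 descends in that order, and Noct is highest with rapamycin and lowest with Torin-2 (3.90 to 5.40 CPM).

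Of the activators, Clock and Arntl were among the members that differed least. Clock (ENSMUSG00000029238, chromosome 5 from 76209868 to 76304792), the histone acetyltransferase-like partner of the pair, stood at 59.8, 61.8 and 58.4 CPM in vehicle replicates 1 to 3, at 54.1, 54.0 and 62.4 CPM with rapamycin and at 54.0, 51.9 and 53.7 CPM with Torin-2. The Torin-2 libraries lay below all others, narrowly so for rapamycin, by a log2 fold change of -0.17 ± 0.07 (SE) against vehicle, while the vehicle and rapamycin libraries overlapped. Arntl (ENSMUSG00000055116, chromosome 7 from 113207465 to 113314126), its partner, stood at 3.90, 5.78 and 4.38 CPM in vehicle, 4.12, 4.64 and 4.81 CPM in rapamycin and 2.83, 3.99 and 3.16 CPM in Torin-2 libraries. All rapamycin libraries lay above all Torin-2 libraries, and vehicle overlapped both. The log2 fold change of Arntl was -0.49 ± 0.19 for Torin-2 and -0.04 ± 0.19 for rapamycin against vehicle. Its Torin-2 value was -0.32 without vehicle replicate 2, which had the highest level of the 9 libraries.

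The REV-ERB genes, repressors of Arntl and Cry1, were the members with the largest upward differences. Nr1d1 (ENSMUSG00000020889, chromosome 11 from 98767932 to 98775333) stood at 4.24, 2.96 and 4.48 CPM in vehicle, 8.88, 7.29 and 10.1 CPM in rapamycin and 11.8, 9.72 and 11.7 CPM in Torin-2 libraries. Both treatments lay above vehicle in every library, by log2 fold changes of 1.51 ± 0.17 with Torin-2 and 1.17 ± 0.18 with rapamycin, whereas the treated groups overlapped each other (0.34 ± 0.16), although Nr1d1 was higher with Torin-2 in each of the 3 same-numbered pairs. Nr1d2 (ENSMUSG00000021775, chromosome 14 from 18204054 to 18239127) stood at 39.0, 41.7 and 37.8 CPM in vehicle, 64.8, 71.6 and 81.8 CPM in rapamycin and 135, 139 and 136 CPM in Torin-2 libraries. Its groups did not overlap, which was the case for 70.2% of all genes between Torin-2 and vehicle, 57.5% between rapamycin and vehicle and 57.2% between Torin-2 and rapamycin. The log2 fold changes of Nr1d2 were 1.79 ± 0.08, 0.88 ± 0.08 and 0.91 ± 0.08 in these comparisons, so that its mean with Torin-2 was 3.46 times that with vehicle. Nr1d1 shares 263 exon bases with Thra, a thyroid hormone receptor gene on the opposite strand, and the strand setting of the counts is not given in the sources used here. Thra stood at 13.6 to 17.3 CPM in vehicle, 25.2 to 32.0 CPM in rapamycin and 23.3 to 24.5 CPM in Torin-2 libraries. Every treated library of Thra thus lay above every vehicle library, as for Nr1d1, while its mean was lower with Torin-2 than with rapamycin. Its part in the Nr1d1 values was not tested.

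Among the Per and Cry repressors, Per1 was higher and Cry1 lower in every library of both inhibitors than in vehicle, and Per2 was higher in every library of Torin-2 but overlapped vehicle with rapamycin. Per1 (ENSMUSG00000020893, chromosome 11 from 69095217 to 69109960) stood at 17.3, 13.0 and 17.4 CPM in vehicle, 24.8, 19.6 and 25.2 CPM in rapamycin and 25.8, 22.5 and 29.1 CPM in Torin-2 libraries. Every treated library lay above every vehicle library, with log2 fold changes of 0.70 ± 0.14 for Torin-2 and 0.54 ± 0.14 for rapamycin, and the treated groups overlapped. Per2 (ENSMUSG00000055866, chromosome 1 from 91415982 to 91459324) stood at 5.78, 5.63 and 8.38 CPM in vehicle, 9.53, 8.48 and 7.42 CPM in rapamycin and 8.82, 9.09 and 8.42 CPM in Torin-2 libraries. Its Torin-2 libraries lay just above vehicle replicate 3 and its rapamycin libraries overlapped vehicle. For rapamycin against vehicle the log2 fold change was 0.36 ± 0.16, and 0.56 without vehicle replicate 3. Cry1 (ENSMUSG00000020038, chromosome 10 from 85131700 to 85185064), the main blocker of the CLOCK and ARNTL pair, stood at 20.6, 20.1 and 24.6 CPM in vehicle, 14.9, 14.5 and 17.6 CPM in rapamycin and 10.6, 12.3 and 12.0 CPM in Torin-2 libraries. No pair of its groups overlapped, and its log2 fold changes were -0.90 ± 0.11 for Torin-2 and -0.47 ± 0.11 for rapamycin against vehicle. Cry1 and Per1 both hold the E-box shown above, and their levels went in opposite directions.

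Dbp and Bhlhe40, which the pair switches on, were both higher under the inhibitors. Dbp (ENSMUSG00000059824, chromosome 7 from 45705088 to 45710203), a transcription factor that carries the rhythm to metabolic genes, stood at 11.8, 9.32 and 12.8 CPM in vehicle, 17.8, 14.7 and 22.9 CPM in rapamycin and 31.5, 30.2 and 28.8 CPM in Torin-2 libraries. Its groups did not overlap, and the log2 fold changes were 1.42 ± 0.15 for Torin-2 and 0.71 ± 0.16 for rapamycin against vehicle and 0.71 ± 0.15 for Torin-2 against rapamycin. Dbp shares 539 exon bases with Sphk2, a sphingosine kinase gene on the opposite strand. Sphk2 stood higher than Dbp, between 83.8 and 109 CPM in the 9 libraries, with a log2 fold change of 0.17 for Torin-2 against vehicle. The part of Sphk2 in the Dbp values was not tested. Bhlhe40 (ENSMUSG00000030103, chromosome 6 from 108660629 to 108666925) stood at 116, 113 and 113 CPM in vehicle, 161, 152 and 146 CPM in rapamycin and 167, 181 and 153 CPM in Torin-2 libraries. Vehicle lay below both treated groups, which overlapped, and the log2 fold changes against vehicle were 0.55 ± 0.07 with Torin-2 and 0.42 ± 0.07 with rapamycin.

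Noct was the only one of the 10 members whose mean stood above vehicle with rapamycin and below it with Torin-2. Noct (ENSMUSG00000023087, chromosome 3 from 51224447 to 51251644) stood at 13.8, 15.4 and 17.2 CPM in vehicle, 22.3, 19.8 and 21.6 CPM in rapamycin and 5.40, 3.93 and 3.90 CPM in Torin-2 libraries. The 3 groups did not overlap. Group means were 15.4 ± 1.70, 21.2 ± 1.25 and 4.41 ± 0.856 CPM (SD, n = 3), so the rapamycin mean was 1.37 times that of vehicle and the vehicle mean 3.51 times that of Torin-2. On the log2 scale the differences were -1.81 ± 0.14 for Torin-2 against vehicle, 0.46 ± 0.12 for rapamycin against vehicle and -2.27 ± 0.14 for Torin-2 against rapamycin, the last being the widest gap between treatments of any member. The order of the groups was that of the summed oligodendrocyte markers given above, and also that of the 5 astrocyte markers, whose sums were 16.2 to 19.8 CPM in vehicle, 20.4 to 31.5 CPM in rapamycin and 12.4 to 14.1 CPM in Torin-2 libraries. Neuron markers (7.75 to 11.6, 9.82 to 13.3 and 5.34 to 7.01 CPM) and fibroblast markers (8.95 to 37.8, 12.3 to 78.2 and 2.38 to 7.17 CPM) were lowest with Torin-2 too. Single markers did not all keep this order: Mbp, the most abundant of the oligodendrocyte list, stood at means of 418, 613 and 327 CPM in vehicle, rapamycin and Torin-2, but Cnp at 33.6, 23.0 and 18.4 CPM, Mag at 1.06, 1.31 and 1.67 CPM and the astrocyte marker Aldh1l1 at 2.61, 3.09 and 3.13 CPM. Their part in the Noct values was not tested.

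**Figure D2:**
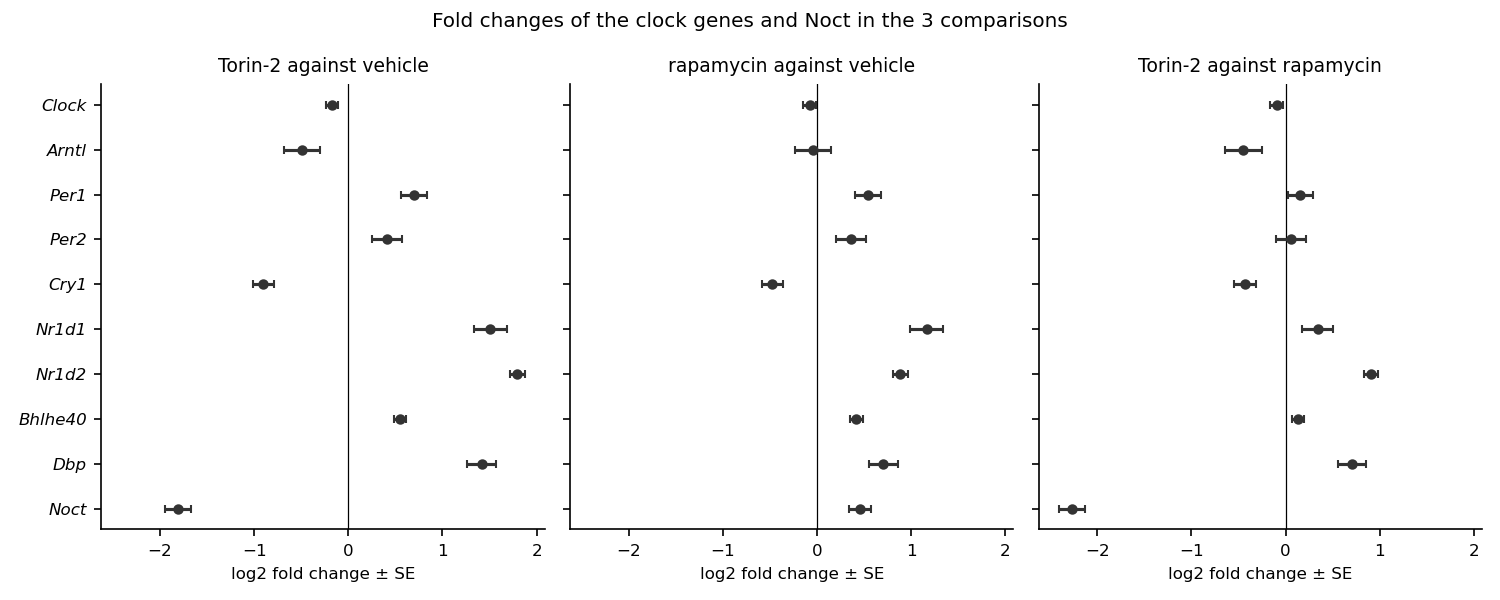
The log2 fold change of each member (point) with its standard error (bar) is plotted for the 3 comparisons on a shared horizontal axis, 0 meaning no difference. Nr1d2, Nr1d1 and Dbp lie farthest to the right for Torin-2 against vehicle (1.79, 1.51 and 1.42), and Noct lies farthest to the left for Torin-2 against rapamycin (-2.27).

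Ratios of counts within a library do not depend on how libraries are scaled and are given for 4 of the pairs of members. The ratio of Nr1d2 to Arntl counts was 7.22 to 10.0 in vehicle, 15.4 to 17.0 in rapamycin and 35.0 to 47.7 in Torin-2 libraries. For Dbp to Cry1 it was 0.464 to 0.574, 1.01 to 1.30 and 2.39 to 2.98, an output gene against a repressor of the same loop. The ratio of Noct to Clock was 0.231 to 0.294 in vehicle, 0.346 to 0.412 in rapamycin and 0.0727 to 0.100 in Torin-2 libraries. The groups did not overlap in these ratios. Set against Per1, Noct counts stood at 0.795, 1.18 and 0.989 in vehicle and at 0.896, 1.01 and 0.855 in rapamycin libraries, which overlapped, and at 0.134 to 0.210 in Torin-2 libraries, which were lower. All are ratios of counts and not of levels per length.

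The rest of the clock was taken from a list by role, drawn up with earlier results of these data known: 39 further activators, repressors, D-box factors and modifying enzymes, of which 34 were tested. With Torin-2, 18 of the 34 rose, 5 fell and 11 did not pass (edgeR, adjusted p under 0.05), so 67.6% passed against 65.4% of all genes, while 32.5% of all genes rose and 32.9% fell. Their median log2 fold change was 0.46, against -0.01 over all genes. With rapamycin, 18 rose, 6 fell and 10 did not pass, or 70.6% against 50.8% of all genes, with a median of 0.26 against 0.001. Scaled by library totals alone, 14 rose and 8 fell, and the share of upward calls among all genes called went from 48.5% to 37.4%. For Torin-2 against rapamycin, 12 were higher, 2 were lower and 20 did not pass, or 41.2% against 48.2%. Without replicate number 3 in every group, the counts up and down were 20 and 5, 16 and 5, and 13 and 1 in these comparisons.

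Of the activators, repressors and D-box factors in this list, Rora, Per3 and Tef rose with both inhibitors. Rora, which activates Arntl at the sites that the REV-ERB proteins repress, stood at 7.11, 7.13 and 6.74 CPM in vehicle, 25.2, 23.6 and 28.9 CPM in rapamycin and 50.6, 50.0 and 57.3 CPM in Torin-2 libraries. It rose by 2.91 ± 0.10 on the log2 scale with Torin-2 (adjusted p = 5.49e-10) and by 1.89 ± 0.10 with rapamycin (8.88e-08), and Torin-2 exceeded rapamycin by 1.02 ± 0.09 (2.79e-06; edgeR, Benjamini-Hochberg, here and in the rest of this account). Per3, the third Period gene, rose from 1.73 ± 0.151 CPM to 5.16 ± 0.427 CPM with Torin-2 (adjusted p = 2.04e-05, edgeR) and to 4.30 ± 0.956 CPM with rapamycin (0.000223). Tef, a D-box factor related to Dbp, rose from 62.5 ± 1.90 CPM to 134 ± 3.33 CPM with Torin-2 (5.10e-09) and to 93.1 ± 1.43 CPM with rapamycin (3.92e-06). It differed between the inhibitors as well (log2 fold change 0.53 ± 0.05, adjusted p = 5.44e-06, edgeR).

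Cry2 and Bhlhe41, relatives of Cry1 and Bhlhe40, rose with Torin-2 and did not pass with rapamycin. Cry2 went from 6.14 ± 0.545 to 10.2 ± 0.919 CPM with Torin-2 (adjusted p = 0.00023, edgeR), the opposite direction to Cry1, and was 6.89 ± 0.584 CPM with rapamycin (0.302). The inhibitors differed for Cry2 by 0.57 ± 0.12 on the log2 scale (0.00258). Bhlhe41 went from 184 ± 26.7 to 245 ± 17.9 CPM with Torin-2 (0.00462) and was 193 ± 22.8 CPM with rapamycin (0.606). Its difference between the inhibitors passed (0.0195) but did not pass when rapamycin replicate 2 (0.0839) or either replicate 1 or 3 of Torin-2 (0.0558 and 0.0736) was left out, by edgeR.

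Nfil3 and Timeless fell. Nfil3, which represses through the D-box that DBP activates, stood at 7.62, 6.02 and 10.3 CPM in vehicle, 4.51, 6.44 and 4.76 CPM in rapamycin and 3.69, 2.13 and 2.67 CPM in Torin-2 libraries. Its Torin-2 libraries lay below all others (log2 fold change -1.50 ± 0.25 against vehicle, adjusted p = 0.000187, edgeR), while the rapamycin call (-0.60 ± 0.23, 0.049) ended when any of several single libraries was left out, with an adjusted p of 0.199 without vehicle replicate 3, and was 0.0512 with RLE scaling. Timeless, a replication fork protein with a debated part in the mammalian clock, fell from 5.51 ± 1.45 CPM to 1.13 ± 0.217 CPM with Torin-2 (2.32e-05) and 1.34 ± 0.424 CPM with rapamycin (0.000117). The 4 markers of dividing cells, Mki67, Top2a, Cdk1 and Ccnb1, summed to 87.1 to 178 CPM in vehicle, 33.9 to 43.5 CPM in rapamycin and 38.0 to 46.4 CPM in Torin-2 libraries, and their part in the Timeless values was not tested. Npas2 and Ciart had means under 1 CPM and passed in 0 of 3 comparisons, and Arntl2, Rorb, Hlf and Fbxl21 were among those with too few counts to be tested.

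**Figure D3:**
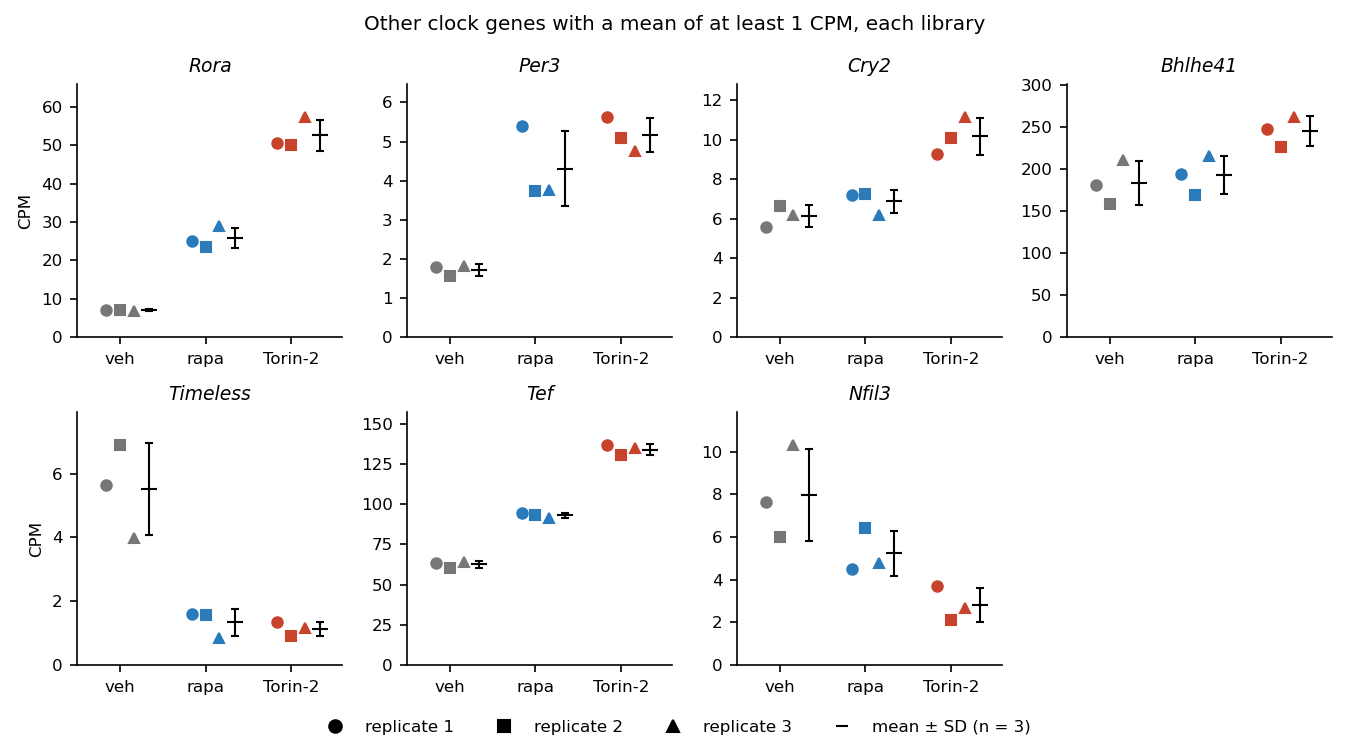
The CPM of 7 clock genes outside the 10 members is plotted for each library (shape gives the replicate number) by treatment, with group mean and SD as a black bar and a separate vertical axis from 0 in each panel. Rora and Tef step up from vehicle through rapamycin to Torin-2, with Rora at 6.74 to 7.13 CPM in vehicle and 50.0 to 57.3 CPM in Torin-2 libraries, and Timeless is low in both treated groups.

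Of 25 tested enzymes and cofactors that modify clock proteins, 13 rose and 3 fell with Torin-2, 15 rose and 4 fell with rapamycin, and 8 were higher and 1 lower with Torin-2 than with rapamycin. The shares past the threshold were 64.0%, 76.0% and 36.0%, against 65.4%, 50.8% and 48.2% of all genes. Among the largest rises with Torin-2 were Csnk2a2 (log2 fold change 1.62 ± 0.10), a casein kinase subunit, and the deacetylase gene Sirt1 (1.23 ± 0.08). The 3 that fell were the deubiquitinase gene Usp2 (-0.87 ± 0.19), Hdac3 (-0.38 ± 0.07), a partner of the REV-ERB corepressor complex, and Parp1 (-0.31 ± 0.05). Sirt1 stood at 14.6 ± 0.753 CPM in vehicle, 21.4 ± 1.69 CPM with rapamycin (adjusted p = 0.000183, edgeR) and 34.3 ± 1.12 CPM with Torin-2 (8.76e-08). With rapamycin the largest rises among those of at least 1 CPM were those of Kmt2a (0.93 ± 0.31), Ep300 (0.92 ± 0.18) and Ncor1 (0.79 ± 0.14), a methyltransferase, an acetyltransferase and a corepressor, and Kmt2a overlapped between the groups. The Kmt2a call was lost without rapamycin replicate 1 (adjusted p = 0.0553, edgeR), rapamycin replicate 3 (0.094), vehicle replicate 1 (0.101) or vehicle replicate 2 (0.08).

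Genes tied to the induction of Per1 by glucocorticoid and cAMP were listed too. Of 12 cAMP and CREB pathway genes, 8 rose and 0 fell with Torin-2 and 9 rose and 0 fell with rapamycin, with medians of 0.62 and 0.49 on the log2 scale, against 65.4% and 50.8% of all genes past the threshold. Those that rose most with Torin-2 were the kinase gene Sik1 (1.56 ± 0.15), the coactivator gene Crtc3 (1.17 ± 0.14) and Creb1 (0.95 ± 0.06). Of 9 glucocorticoid pathway genes, 5 rose and 2 fell with Torin-2 and 6 rose and 1 fell with rapamycin. Per1 itself is among the 9 and among the rises in both comparisons, so these counts are not separate from its own values. The share past the threshold was 77.8% in both, against 65.4% and 50.8% of all genes. The glucocorticoid receptor gene Nr3c1 rose from 60.6 ± 0.490 to 127 ± 8.06 CPM (adjusted p = 2.06e-08, edgeR) and the hormone-responsive Klf9 by 1.81 ± 0.12 on the log2 scale (1.10e-07), while Fkbp5, which is induced by the same hormone, fell from 23.2 ± 2.33 to 7.96 ± 0.946 CPM (9.52e-06).

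Targets that REV-ERB proteins are known to repress did not share 1 direction. Of 10 such genes listed, 7 were tested, and with Torin-2 5 fell and 1 rose, while with rapamycin 3 fell and 1 rose. Over all genes, 32.9% fell and 32.5% rose with Torin-2, and 26.2% fell and 24.6% rose with rapamycin. The chemokine gene Ccl2 fell most, from 30.1 ± 8.59 CPM to 0.765 ± 0.531 CPM with Torin-2 (adjusted p = 1.24e-07, edgeR) and to 0.339 ± 0.0762 CPM with rapamycin (4.34e-07), and the cell cycle gene E2f1 fell by 1.00 and 0.95 on the log2 scale. The gelatinase gene Mmp9 rose from 6.37 ± 0.713 to 46.6 ± 14.3 CPM with Torin-2 (adjusted p = 7.81e-07, edgeR) and to 22.4 ± 5.68 CPM with rapamycin (9.72e-05). The fractalkine receptor gene Cx3cr1 fell from 4.39 ± 1.30 to 0.26 ± 0.108 CPM with Torin-2 (1.33e-05) and was 4.36 ± 1.95 CPM with rapamycin (0.97). For Cx3cr1 the inhibitors differed by -4.04 ± 0.49 on the log2 scale (3.48e-05).

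Relatives of Noct, which share its catalytic domain family, split in direction. Of the 5 tested, Cnot6l (1.26 ± 0.09 on the log2 scale) and Angel2 (0.58 ± 0.08) rose with Torin-2, and Pde12 (-0.71 ± 0.08) and Angel1 (-0.44 ± 0.18) fell. The Angel1 call had an adjusted p of 0.0455 (edgeR) with overlapping libraries, and it was lost under DESeq2 (0.0561) and when any of several single libraries was left out, with 0.196 without vehicle replicate 2. With rapamycin Cnot6l alone rose (0.41 ± 0.09) and 0 fell. These are 80.0% and 20.0% of the 5, against 65.4% and 50.8% of all genes. Between the inhibitors 2 were higher and 2 lower with Torin-2 than with rapamycin, or 80.0% against 48.2% of all genes. Cnot6l (0.86 on the log2 scale) and Angel2 (0.58) were higher, and Cnot6 (-0.29) and Pde12 (-0.56) lower. Pde12 stood at 20.6 ± 0.662 CPM with Torin-2 against 30.3 ± 2.21 CPM with rapamycin (adjusted p = 9.43e-05, edgeR). Among 18 other deadenylase subunits and their recruiting proteins, 10 rose and 4 fell with Torin-2 and 9 rose and 2 fell with rapamycin, so 77.8% and 61.1% passed against 65.4% and 50.8% of all genes.

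The genes whose levels followed the members most closely over the 9 libraries were found by Pearson correlation of log2 CPM among 8497 genes of at least 5 CPM. For Noct they were Fam98b (r = 0.997), Tnfrsf21 (0.991) and Ell2 (0.990), for Nr1d1 Crtc2 (0.995), Zmym2 (0.994) and Zfp768 (0.992), and for Dbp Exoc6 (0.992), Tnfrsf26 (0.991) and Ap3m2 (0.990). Arntl had weaker matches, led by Diablo (0.932), Ptk2 (0.919) and Dpagt1 (0.905). Fam98b repeated the Noct order with a narrower range, at means of 25.1 CPM in vehicle, 27.9 CPM in rapamycin and 14.2 CPM in Torin-2 libraries. These values are descriptions: the 9 points fall into 3 treatment groups, and much of each r reflects the group means.

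Across replicate numbers, the members followed the number in a few cases. Same-numbered libraries of different groups deviated together over all genes, most closely for replicate 3 (r = 0.357 to 0.475). Replicates 1 and 2 were less set apart: pairs of these 2 numbers stood at 0.0431 to 0.163, and the lowest same-numbered pair at 0.154. Of all genes, 4.42% (553) passed a test of the number. That count was 292 without rapamycin replicate 2, 331 without Torin-2 replicate 1, 337 without rapamycin replicate 1, 941 without vehicle replicate 3 and 1328 with no filter on low counts. Of the members only Per1 passed, which is given as a description. In replicate 2 of all 3 groups Per1 lay below its group mean, by 0.19 to 0.28 on the log2 scale, and Nr1d1 by 0.18 to 0.37, whereas in replicates 1 and 3 both lay above it in every group. Arntl was the reverse in replicate 2, above its group mean by 0.04 to 0.32. Over the 9 libraries, with group means removed, the deviations of Per1 and Nr1d1 correlated at r = 0.937. Those of Nr1d1 and Dbp correlated at 0.866 and those of Clock and Nr1d2 at 0.843. Arntl stood at -0.711 with Per1 and -0.699 with Nr1d1, but at 0.562 with Nr1d2. These are a few of the pairs of members, and they are descriptions over values from shared libraries. Nr1d2 did not follow Nr1d1 here, lying below its mean in replicate 1 of every group, by 0.02 to 0.16. For Noct the mean deviations of the 3 numbers spread over 0.15 on the log2 scale, less than any gap between its treatments. These means average deviations of both signs, from -0.158 to 0.307 in replicate 1. In replicate 2 Noct lay below its group mean in every group, by 0.001 to 0.148. Fibroblast markers also varied with the number, being lowest in replicate 3 of each group (8.95, 12.3 and 2.38 CPM in vehicle, rapamycin and Torin-2, against 6.75 to 78.2 CPM in replicates 1 and 2), and their part in these deviations was not tested.

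**Figure D4:**
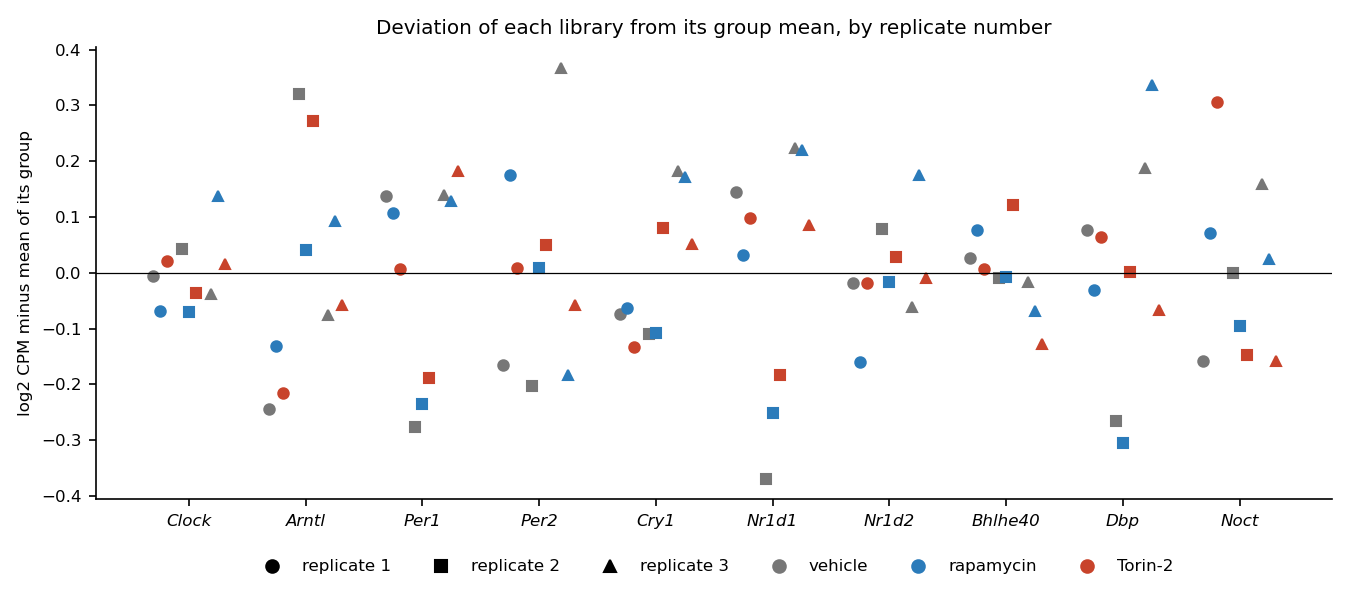
The deviation of each library from the mean of its group (log2 CPM, vertical axis) is plotted for each member, with shape for the replicate number and colour for the treatment. The 3 replicate 2 libraries lie below 0 for Per1 (-0.19 to -0.28) and Nr1d1 (-0.18 to -0.37) and above 0 for Arntl (0.04 to 0.32).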

How the data were processed

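The deposited table holds whole-number counts per gene for 9 libraries (mRNA libraries read in pairs of 100 bp per the labels), 1 column a sample, and 0 columns were left unused. Tools named in the submitters' processing notes are STAR 2.5.2a, bcl2fastq and FastQC, and the builds are mm10 and GRCm38.p6. How reads were assigned to genes, on which strand and with which annotation, is not given in the sources used here. The labels' protocols say that bones of different animals were kept apart, so replicates are biological.

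The fit used edgeR 4.0.16 (R 4.3.3). Genes were kept by filterByExpr (12511 of 53342), scaled by TMM (factors 0.955 to 1.05) and fitted by quasi-likelihood in 1 model of 3 groups without covariates. The common biological coefficient of variation was 9.96%, and totals of 16116666 to 24044329 counts leave low-count genes least precise. Each contrast had a 2-sided test, and p-values were adjusted by Benjamini-Hochberg over the 12511 genes, with a threshold of 0.05. Standard errors come from the fold change and its F statistic. The fit was tested on simulated data. Changes are relative to other genes, with no spike-in.

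The replicate numbers come from the sample titles, and the reported fit does not pair libraries by them. They entered as a block in an alternative fit and in the test of the number. Deviations from group means correlated at 0.154 to 0.475 in the 9 same-numbered pairs. Other pairs stood at -0.34 to 0.163, so the ranges overlap. Positions and exon lengths are from GENCODE M21, and promoters from RefSeq (GRCm38.p6). Members and lists were chosen with earlier results of these data known. Named genes are all members, activators, repressors and D-box factors of the clock list with at least 1 CPM, and up to 3 largest rises and falls of other lists. For Noct, Arntl, Nr1d1 and Dbp the 3 genes most alike are named too, leaving out members, sex-linked and predicted genes and Riken clones. Alternatives were other scalings, filters, DESeq2 1.42.0, a replicate block and left-out libraries. Some genes that this rule names are not reported here.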

Additional observations from a re-analysis of the deposited data

How the results depend on the processing

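Genes called numbered 8182, 6351 and 6035 in the comparisons of Torin-2 with vehicle, of rapamycin with vehicle and of the inhibitors with each other. With the replicate block they were 8713, 7003 and 6831, and leaving out 1 library gave 7511 to 8390, 5457 to 6258 and 5168 to 6174. Other clock genes called numbered 23, 24 and 14, with 23 to 24, 18 to 24 and 12 to 15 when 1 library was left out and 23 to 25, 21 to 25 and 13 to 16 under the other settings. For the test of the replicate number, 553 genes were called, against 1328 with no filter on low counts, and 292 to 941 when 1 library was left out (337 without rapamycin replicate 1, 292 without rapamycin replicate 2, 331 without Torin-2 replicate 1 and 941 without vehicle replicate 3); the cause was not tested. Of 510 values of the members under the alternatives, 481 kept their side of the threshold, 19 lost it and 10 gained it. With the threshold passed in either fit, 0 changed sign. Changes of sign short of it in both fits were not counted apart from the 481. The losses were all in Torin-2 against vehicle, for Arntl, Clock and Per2. With the replicate block, 6 of 10 members in place of 4 passed between the inhibitors, the additions being Arntl (-0.45 on the log2 scale) and Nr1d1 (0.34). Scaling by library totals added Nr1d1 and Bhlhe40 there. Depth limits Arntl most, at 53 to 119 counts per library.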
